A study of Mus musculus with 3 samples.

Results

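The genes described here are 36 genes of the cell cycle and of DNA replication, chosen by name from the 27088 genes of an RNA sequencing table of mouse spleen B cells. All 36 had a row in the table. The rule lists names of known cell cycle genes and uses no measured value, but the list was drawn up with earlier results of these data known. The study asked how SJMHE1, a peptide of the blood fluke Schistosoma japonicum, acts in mice with allergic rhinitis, an allergic inflammation of the nose. Female BALB/c mice, aged 6 weeks at the start and labelled as 13 weeks old, carried no genetic modification named in the labels. Rhinitis was induced with ovalbumin (OVA): 10 μg OVA with 2 mg aluminum hydroxide into the abdomen for sensitization, then 100 μg OVA into the nose between day 21 and day 35. The PBS group received PBS under the skin on days 0, 14 and 28. The SJMHE1 group received 10 μg SJMHE1 in incomplete Freund's adjuvant on the same days, and all mice were killed on day 36. The PBS injections held no adjuvant, so the peptide and the adjuvant cannot be told apart. B cells were sorted from the spleens, the samples of 3 mice were mixed in each group, and 1 library was made from each pool.

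B cells of the spleen are mostly resting, and those that have met antigen divide, above all in germinal centres. Before a cell copies its DNA, cyclin E and the E2F transcription factors drive it from G1 into S phase. The helicase MCM2-7 is loaded onto origins by CDC6 and CDT1, and PCNA then clamps the polymerases onto the template while ribonucleotide reductase, thymidylate synthase and thymidine kinase supply deoxynucleotides. For mitosis, CDK1 with cyclins A and B starts chromosome condensation, Aurora and Polo kinases build the spindle, the BUB and TTK kinases hold the checkpoint, and the anaphase-promoting complex with CDC20 ends it. Genes of the G1/S transition and of replication are known E2F targets. Genes of mitosis are known to be induced later through CCAAT boxes, bound by NF-Y, and CHR elements (cell cycle genes homology regions), bound by the DREAM and B-MYB complexes.

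To show how the promoters of these genes are built, the 200 bases upstream of the transcription start are given for 9 members, 5′ to 3′ on the strand of the gene, from RefSeq on GRCm38.p6. Capitals mark the motif words searched, on either strand. The words were CCAAT for the NF-Y box, TTTGAA or TTTAAA for the CHR, and TTTCCCGC, TTTGGCGC, TTTCGCGC, TTTGCCGC or TTCCCGCC for E2F, of which TTTCCCGC and TTCCCGCC can overlap. The following 6 mitosis genes were chosen as those with large differences (Cdc20, Ttk), abundant ones (Top2a, Mki67), a smaller difference (Kif11) and almost none (Ccnb2).
Cdc20, chr4:118437344-118437543, minus strand: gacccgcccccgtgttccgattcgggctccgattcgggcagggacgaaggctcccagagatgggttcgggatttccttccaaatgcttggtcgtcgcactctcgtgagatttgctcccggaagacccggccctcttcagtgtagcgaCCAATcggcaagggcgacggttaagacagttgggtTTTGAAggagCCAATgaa
Ttk, chr9:83834489-83834688, plus strand: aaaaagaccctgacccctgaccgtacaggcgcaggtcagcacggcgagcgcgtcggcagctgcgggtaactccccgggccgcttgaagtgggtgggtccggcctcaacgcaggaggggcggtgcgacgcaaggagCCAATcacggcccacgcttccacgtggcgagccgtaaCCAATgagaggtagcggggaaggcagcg
Top2a, chr11:99024190-99024389, minus strand: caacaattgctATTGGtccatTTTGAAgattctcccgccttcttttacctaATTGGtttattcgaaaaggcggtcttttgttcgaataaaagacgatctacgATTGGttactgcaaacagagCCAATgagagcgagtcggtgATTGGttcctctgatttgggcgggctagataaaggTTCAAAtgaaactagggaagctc
Mki67, chr7:135716380-135716579, minus strand: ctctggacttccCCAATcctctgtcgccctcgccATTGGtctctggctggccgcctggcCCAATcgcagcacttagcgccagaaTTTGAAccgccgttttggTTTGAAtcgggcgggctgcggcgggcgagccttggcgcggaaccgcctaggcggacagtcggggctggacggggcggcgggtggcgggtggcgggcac
Kif11, chr19:37376182-37376381, plus strand: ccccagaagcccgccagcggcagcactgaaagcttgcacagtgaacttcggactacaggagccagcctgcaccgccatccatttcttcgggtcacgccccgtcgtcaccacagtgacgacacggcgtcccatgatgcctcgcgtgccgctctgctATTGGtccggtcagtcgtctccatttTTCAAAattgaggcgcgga
Ccnb2, chr9:70421555-70421754, minus strand: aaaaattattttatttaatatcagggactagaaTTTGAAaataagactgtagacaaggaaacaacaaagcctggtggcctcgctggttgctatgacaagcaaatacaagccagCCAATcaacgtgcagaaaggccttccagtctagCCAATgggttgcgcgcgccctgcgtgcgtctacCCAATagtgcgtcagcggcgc
The next 3 replication genes were chosen because their windows hold E2F words. In Mcm5 and Mcm6, capitals also mark words on opposite strands that overlap each other.
Mcm5, chr8:75109309-75109508, plus strand: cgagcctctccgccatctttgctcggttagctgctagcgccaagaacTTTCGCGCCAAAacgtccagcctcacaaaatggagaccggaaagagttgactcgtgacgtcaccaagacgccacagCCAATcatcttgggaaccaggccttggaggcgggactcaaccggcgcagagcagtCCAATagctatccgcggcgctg
Mcm6, chr1:128359706-128359905, minus strand: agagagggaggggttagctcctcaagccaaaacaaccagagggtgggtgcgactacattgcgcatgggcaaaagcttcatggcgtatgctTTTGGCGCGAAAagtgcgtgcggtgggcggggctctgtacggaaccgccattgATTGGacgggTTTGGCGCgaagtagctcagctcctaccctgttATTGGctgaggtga
Rrm1, chr7:102441495-102441694, plus strand: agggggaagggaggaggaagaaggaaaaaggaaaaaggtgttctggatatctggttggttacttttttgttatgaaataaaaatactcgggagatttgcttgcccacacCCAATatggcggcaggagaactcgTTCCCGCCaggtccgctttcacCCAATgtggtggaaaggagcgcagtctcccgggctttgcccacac

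The Cdc20 stretch has a CHR word between a pair of CCAAT boxes close to the start, and Kif11 has 1 of each, both on the opposite strand. Top2a and Mki67 carry several CCAAT boxes with 2 CHR words each. Ttk has 2 CCAAT boxes upstream, and its CHR word lies after the start. The 3 replication genes hold E2F words and CCAAT boxes.

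Over 300 bases, 250 before and 50 after the start, a promoter was found for 31 of the 36 members. E2F words stood in 7 of 17 promoters of the G1/S and replication genes (41.2%) and in 1 of 14 promoters of the mitosis genes (7.14%), that of Cdk1. Among 12519 promoters of protein-coding genes of the table, 6.55% held such a word, and among all 27025 promoters 3.97% did. CHR words stood in 12 of 14 mitosis promoters (85.7%) and in 7 of 17 G1/S and replication promoters (41.2%), against 20.2% of the protein-coding promoters and 27.8% of all promoters. CCAAT stood in 12 of 14 and 11 of 17 (85.7% and 64.7%), against 38.3% and 37.9%. Both a CHR word and CCAAT stood in 11 of 14 mitosis promoters (78.6%), in 5 of 17 G1/S and replication promoters (29.4%) and in 8.18% of the protein-coding promoters. These are letter matches, and they say nothing about binding in these cells.

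**Figure D1:**
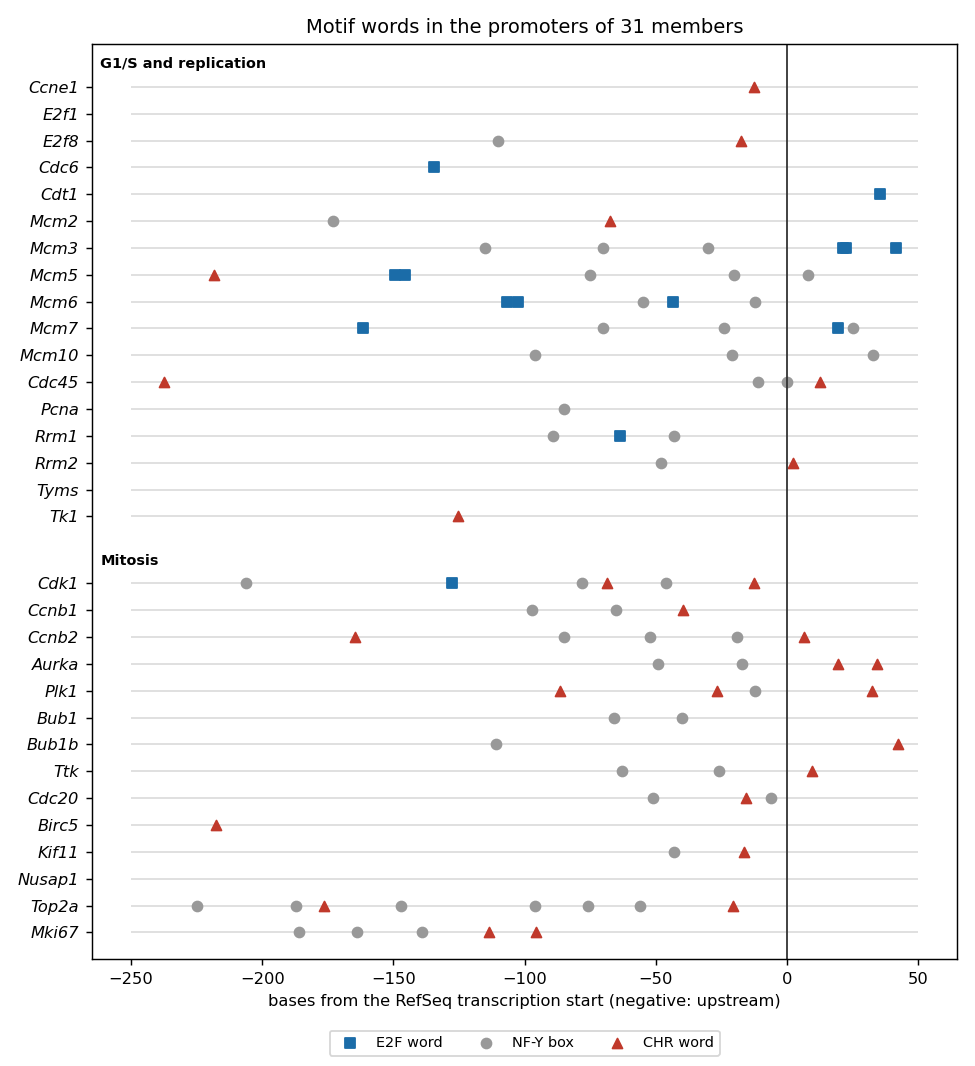
Motif words in the 300-base promoters of 31 members, by distance in bases from the RefSeq transcription start on the x axis and with 1 gene per line. Blue squares are E2F words, grey circles NF-Y boxes and red triangles CHR words, each drawn at its centre. E2F words stand in 7 of 17 G1/S and replication promoters and in 1 of 14 mitosis promoters, while CHR words stand in 12 of 14 mitosis promoters.

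The table gave a read count and an FPKM value (fragments scaled by gene length and by library size) for each gene. Total counts were 48267168 for PBS and 51280237 for SJMHE1. A further pair of value columns, whose name matches no sample, was not used, so the Control group of healthy mice is not analysed here. B cell markers were abundant in both libraries: all 11 had an FPKM of at least 127.27 in the PBS library and at least 128.7 in the SJMHE1 library. Markers of other cells were present too. The most abundant neutrophil marker, S100a9, had 196.0 FPKM in PBS and 266.5 in SJMHE1. The purity of the sort was not tested. With 1 library in each group there is no replicate check and no p-value, and every difference below is a difference between 2 pools. It is given as the log2 ratio of FPKM, SJMHE1 to PBS, with a 95% interval computed from both counts by the exact Clopper-Pearson method, which covers counting error only. In pooled RNA, fewer dividing cells and less RNA per dividing cell cannot be told apart.

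The 36 genes spanned a wide range of levels. In the PBS library, FPKM ran from 0.79 for Cdk1 to 58.53 for Pcna, with a median of 3.65, and in the SJMHE1 library from 0.38 for Ttk to 47.86 for Pcna, with a median of 2.82. Levels above 10 FPKM were held by 8 members in PBS and 6 in SJMHE1. Those of the PBS library were Pcna, Cdt1, Mki67 and 5 subunits of the MCM2-7 helicase. At the low end, 3 members were under 1 FPKM in PBS and 4 in SJMHE1. No member had fewer than 110 counts in a library, and the most counted member, Pcna, had 7711.

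**Figure D2:**
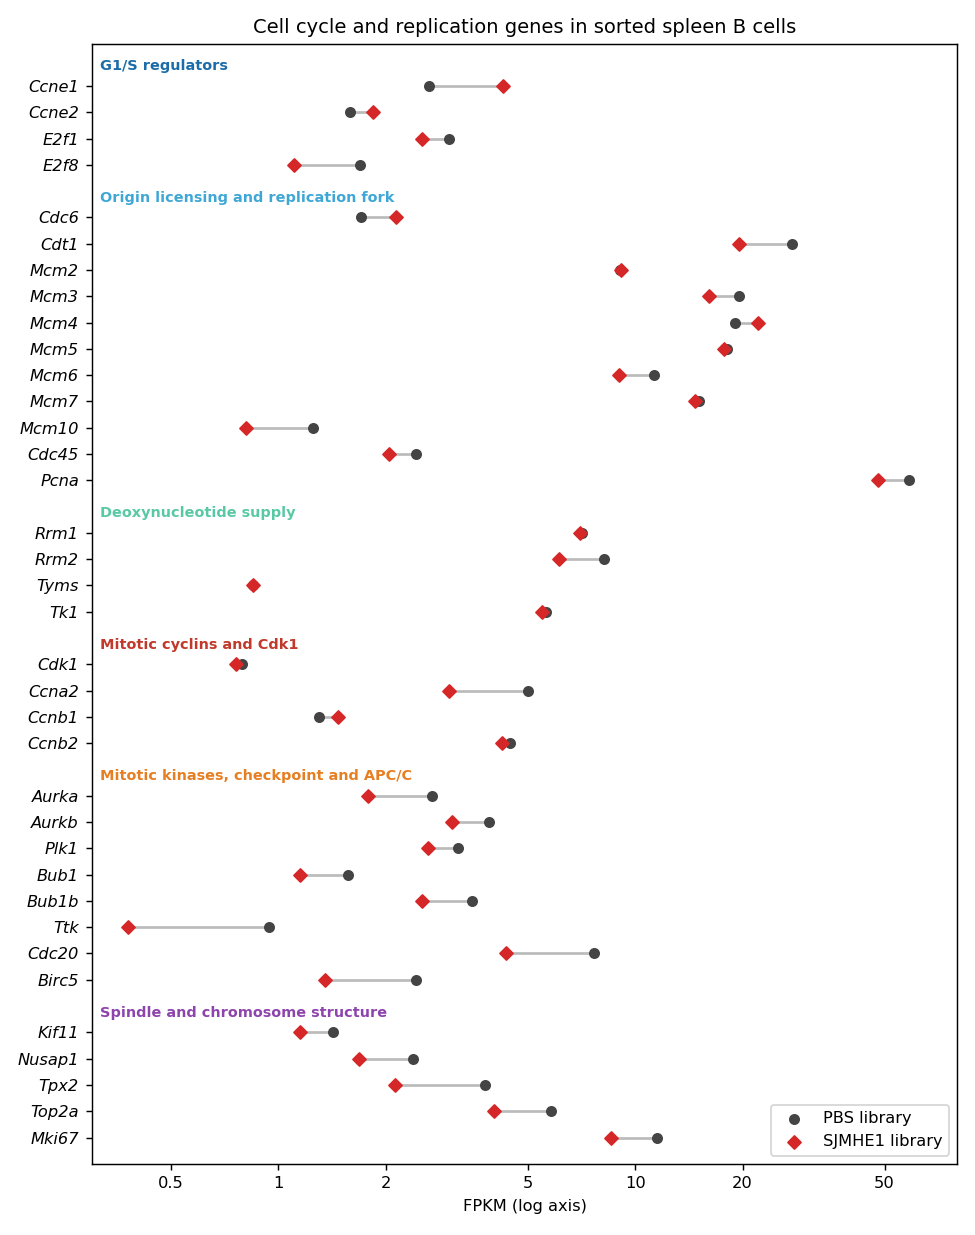
FPKM of the 36 members (log axis) in the PBS library (grey circles) and the SJMHE1 library (red diamonds), 1 pooled library each, grouped by role. Pcna has the highest FPKM in both libraries, and in the 2 lowest groups of the plot, which hold mitotic kinases, checkpoint and spindle genes, the SJMHE1 value lies left of the PBS value for every gene.

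Most members were lower in the SJMHE1 library. Of the 36, 29 had a ratio below 0, 6 above 0, and Tyms was equal in both. The median log2 ratio was -0.30, and the summed FPKM was 276.6 in PBS against 234.6 in SJMHE1. Rescaled to equal FPKM sums, 23 of the 36 were below 0, and 28 with TMM library sizes, a scaling that trims extreme genes. A filter on low values (both libraries above 0, and either of them at 1 FPKM or more) kept 12433 genes of the table and 33 members. Tyms, Cdk1 and Ttk did not pass it, and Mcm10 passed only through the PBS library. Among the genes past the filter, 51.9% had a ratio below 0, and the median was -0.01. None of the 33 members had a log2 ratio above 1 or below -1, thresholds that 2.43% and 3.57% of the genes past the filter exceeded. At 1.5-fold, 7 of the 33 members were lower and 1 was higher, against 7.85% and 5.72% of the genes past the filter. The counting interval lay wholly below 0 for 22 of the 33 (66.7%) and wholly above 0 for 3 (9.09%), against 35.2% and 30.2%. As the number of counts sets how narrow an interval is, the same shares were taken over 8124 protein-coding genes in the members' range of counts. There, 51.5% were below 0, 35.4% had an interval wholly below 0, and 4.41% were at least 1.5-fold lower.

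The members did not differ evenly by role. The 19 genes of the G1/S transition and replication had a median of -0.036, with 13 below 0, and the 17 genes of mitosis a median of -0.47, with 16 below 0. The summed FPKM of the first set was 214.2 in PBS and 190.4 in SJMHE1, and that of mitosis was 62.37 and 44.24. Intervals lay wholly below 0 for 9 of the 19 (47.4%) and for 14 of the 17 (82.4%). Over all genes past the filter, 51.9% had a ratio below 0 and 35.2% an interval wholly below 0. The member counts include Tyms, Cdk1 and Ttk, which did not pass it. Wholly above 0 were those of 3 replication-side genes, Ccne1, Cdc6 and Mcm4, and of none of the mitosis genes. At least 1.5-fold lower were 2 of the 19 (10.5%) and 6 of the 17 (35.3%), against 7.85% of the genes past the filter. When FPKM was rescaled to equal sums, the median of the first set was above 0 (0.047, with 9 of 19 below 0), and that of mitosis stayed below (-0.39, with 14 of 17 below 0). Over the members that overlap no other gene and share few windows with another gene, the first set had a median of -0.25 (7 of 11 below 0) and mitosis -0.47 (9 of 9), which narrows the gap between them. Over the members past the filter, the medians were -0.14 and -0.47. The division into these sets was chosen after the values were seen. The difference between these sets was not tested, since the genes come from the same 2 libraries.

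**Figure D3:**
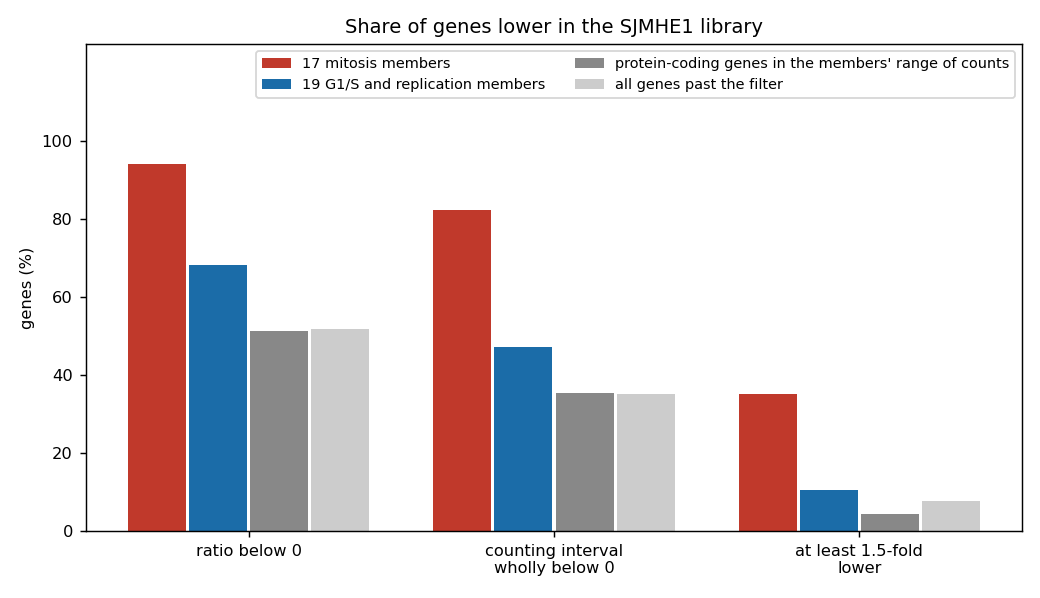
Share of genes in percent (y axis, from 0) that were lower in the SJMHE1 library by 3 rules, for the 17 mitosis members, the 19 G1/S and replication members, 8124 protein-coding genes in the members' range of counts and 12433 genes past the filter. Mitosis members stand at 94.1%, 82.4% and 35.3%, and the genes past the filter at 51.9%, 35.2% and 7.85%. The member sets include genes that did not pass the filter. Of the 15 mitosis members past it, 14, 13 and 5 met the 3 rules. The division of the members was chosen after the values were seen.

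Among the G1/S regulators, cyclin E1 and E2f8 differed in opposite directions. Ccne1, a cyclin that activates CDK2 for S phase entry, stood at 2.65 FPKM in PBS (389 counts) and at 4.27 in SJMHE1 (663 counts). Its log2 ratio of 0.69 (interval 0.50 to 0.87) was the highest of all members and the only 1 above 1.5-fold. Ccne1 (ENSMUSG00000002068) lies on chromosome 7 from 38097984 to 38107534, minus strand, in GRCm38. Its paralog Ccne2 stood at 1.59 and 1.84 FPKM, a log2 ratio of 0.21 whose interval (-0.016 to 0.43) includes 0. The span of Ccne2 overlaps Ints8 on the opposite strand for 5622 bases, and Ints8 had 2793 and 4187 counts. Whether the counting used strand is not given in the sources used here, so reads of this pair cannot be told apart.

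The activator E2f1 stood at 3.01 FPKM in PBS and 2.53 in SJMHE1 (log2 ratio -0.25, interval -0.44 to -0.074). E2f8, an atypical E2F that represses E2F targets, stood at 1.70 and 1.11 (508 and 354 counts), a log2 ratio of -0.61 (interval -0.81 to -0.41). The median of the 4 regulators was -0.020, and it was above 0 with equal FPKM sums (0.063) and with TMM library sizes (0.0057).

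Of the licensing factors, CDC6 and CDT1 load the helicase together, yet their genes differed in opposite directions. Cdc6 had 1.71 FPKM in PBS and 2.14 in SJMHE1 (493 and 651 counts), a log2 ratio of 0.32 (interval 0.14 to 0.49). Cdt1, the second most abundant member in the PBS library, had 27.45 and 19.60 FPKM (4733 and 3579 counts), a log2 ratio of -0.49 (interval -0.55 to -0.43).

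The 6 subunits of the MCM2-7 helicase form a ring together, and their genes stood at similar levels in both libraries. Their FPKM ranged from 9.07 to 19.57 in the PBS library, and they summed to 92.17 in PBS and 88.74 in SJMHE1. Mcm2 (9.07 and 9.13 FPKM), Mcm5 (18.14 and 17.72) and Mcm7 (15.07 and 14.70) had intervals that include 0. The span of Mcm7 overlaps Ap4m1 and Cops6 on the opposite strand, so its value is less certain. Mcm3 stood at 19.57 and 16.13 FPKM (log2 ratio -0.28, interval -0.35 to -0.22). Mcm6 stood at 11.28 and 9.03 (log2 ratio -0.32, interval -0.40 to -0.25). Mcm4 went the other way, with 19.04 and 22.03 FPKM and a log2 ratio of 0.21 (interval 0.14 to 0.27). The highest and the lowest subunit were 2.16-fold apart in PBS and 2.44-fold apart in SJMHE1.

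Of the members that start and run the fork, Mcm10, Cdc45 and Pcna were lower in the SJMHE1 library. Mcm10, needed to activate the loaded helicase, had 1.25 FPKM in PBS and 0.81 in SJMHE1 (533 and 366 counts), a log2 ratio of -0.63 (interval -0.83 to -0.43). Cdc45, the helicase cofactor, stood at 2.43 and 2.05 FPKM (log2 ratio -0.25, interval -0.44 to -0.057). Pcna, the sliding clamp, stood at 58.53 and 47.86 FPKM (log2 ratio -0.29, interval -0.34 to -0.25). The pseudogene Pcna-ps2 shares 19.1% of the 50-base windows of Pcna and had 70 and 55 counts. Over the 11 licensing and fork genes the median was -0.25, with 8 below 0.

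In deoxynucleotide supply, a ribonucleotide reductase subunit differed and the other genes hardly did. Rrm2, the small subunit made in S phase, stood at 8.2 FPKM in PBS and 6.11 in SJMHE1 (1249 and 986 counts), a log2 ratio of -0.42 (interval -0.55 to -0.31). The large subunit Rrm1 stood at 7.08 and 7.00 FPKM (log2 ratio -0.016, interval -0.083 to 0.039). Tyms, which makes thymidylate, stood at 0.85 FPKM in both libraries (287 and 305 counts). Tk1, which salvages thymidine, stood at 5.61 and 5.48 FPKM (log2 ratio -0.034, interval -0.14 to 0.063). Tk1 lies within the span of Gm20708 on the opposite strand, which had 11 counts in PBS and 573 in SJMHE1, so the value of Tk1 is uncertain. The median of the 4 genes was -0.025, and it turned to 0.058 with equal FPKM sums and to 0.0018 with TMM library sizes.

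The mitotic cyclins split. Ccna2, which acts in S phase and G2, had 5.0 FPKM in PBS and 3.01 in SJMHE1 (1121 and 716 counts), a log2 ratio of -0.73 (interval -0.87 to -0.60). It overlaps Exosc9 on the opposite strand for 863 bases. The B-type cyclins showed no difference beyond counting error: Ccnb1 stood at 1.30 and 1.47 FPKM (log2 ratio 0.18, interval -0.055 to 0.39). Ccnb2 stood at 4.45 and 4.24 (log2 ratio -0.070, interval -0.29 to 0.13). For Ccnb1, 18.9% of the windows are shared with the pseudogene Ccnb1-ps, which had 35 and 40 counts. Their partner Cdk1, at 0.79 and 0.76 FPKM (215 and 219 counts), had an interval of -0.34 to 0.22. The median of these 4 was -0.063, and 0.020 with equal FPKM sums.

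All 8 genes of the mitotic kinases, the spindle checkpoint and anaphase were lower in the SJMHE1 library, each with an interval wholly below 0. The median log2 ratio was -0.53. It stayed between -0.53 and -0.45 with counts scaled by their totals, with equal FPKM sums, centred on all genes and with TMM library sizes, and all 8 stayed below 0. Ttk (ENSMUSG00000038379, chromosome 9, 83834689 to 83872389, plus strand), the checkpoint kinase MPS1, had 0.94 FPKM in PBS and 0.38 in SJMHE1 (256 and 110 counts). Its log2 ratio of -1.31 (interval -1.64 to -0.98) was the lowest of the 36, and Ttk was the only member more than 2-fold apart, though too low in FPKM for the filter. Cdc20, the activator of the anaphase-promoting complex, stood at 7.66 and 4.35 FPKM (786 and 473 counts), a log2 ratio of -0.82 (interval -0.99 to -0.65). Birc5, which encodes survivin of the chromosomal passenger complex, stood at 2.43 and 1.35 FPKM (455 and 268 counts), a log2 ratio of -0.85 (interval -1.07 to -0.63).

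Among the kinases, Aurka, which acts at spindle poles, stood at 2.69 FPKM in PBS and 1.78 in SJMHE1 (log2 ratio -0.60, interval -0.83 to -0.36). Aurkb, the kinase of the passenger complex, stood at 3.89 and 3.07 (log2 ratio -0.34, interval -0.52 to -0.18). Plk1, the Polo kinase, stood at 3.19 and 2.63 (log2 ratio -0.28, interval -0.49 to -0.065). The intervals of Aurka, Aurkb and Plk1 overlap, and their order was not tested. For the checkpoint genes, Bub1 stood at 1.57 and 1.15 FPKM (log2 ratio -0.45, interval -0.67 to -0.22). Bub1b, which encodes BUBR1, stood at 3.50 and 2.53 (log2 ratio -0.47, interval -0.62 to -0.32).

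**Figure D4:**
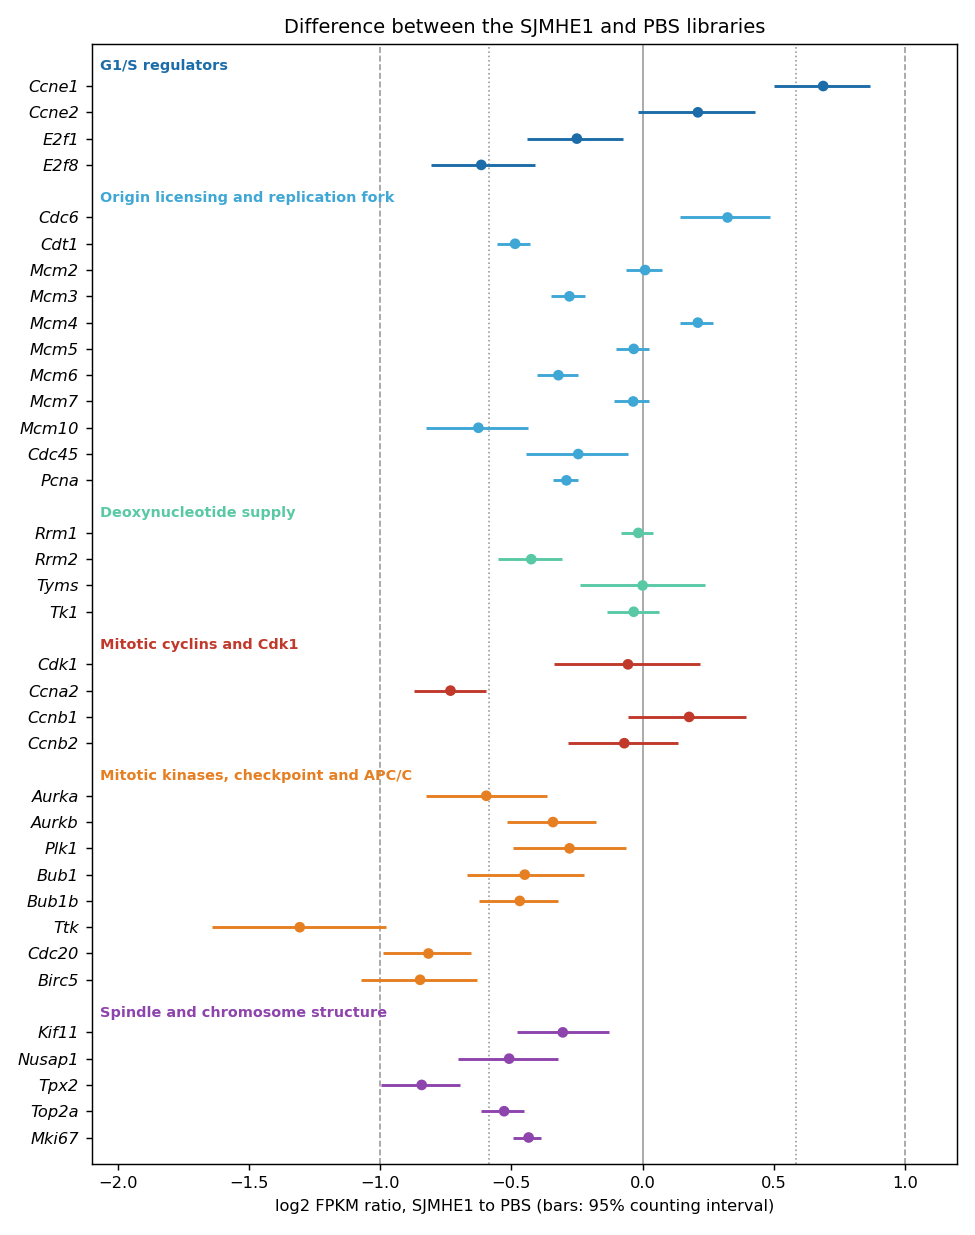
Log2 FPKM ratio, SJMHE1 to PBS, of each member by role (points), with the 95% counting interval (bars). The solid line is 0, dotted lines are 1.5-fold and dashed lines 2-fold. All 13 genes of the 2 lowest groups lie left of 0 with their bars, Ttk at -1.31 being the lowest, and Ccne1 at 0.69 is the highest of all.

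The 5 genes of the spindle and of chromosome structure were lower as well, with a median of -0.51 and every interval below 0. Tpx2, which brings Aurora A to the spindle, had 3.80 FPKM in PBS and 2.12 in SJMHE1 (977 and 577 counts), a log2 ratio of -0.84 (interval -0.998 to -0.70). Nusap1, a microtubule bundling protein, stood at 2.39 and 1.68 FPKM (log2 ratio -0.51, interval -0.70 to -0.32). Kif11, the motor that separates spindle poles, stood at 1.42 and 1.15 (log2 ratio -0.30, interval -0.48 to -0.13). Top2a, which untangles sister chromatids, stood at 5.81 and 4.03 FPKM with 2878 and 2114 counts, a log2 ratio of -0.53 (interval -0.61 to -0.45). Mki67, whose protein Ki-67 coats mitotic chromosomes and is the usual label of dividing cells, stood at 11.54 and 8.54 FPKM. It had 6371 and 4990 counts, and its log2 ratio of -0.43 (interval -0.49 to -0.39) is the most precise of the mitosis genes. Over the 20 members that overlap no other gene and share under 5% of their windows with another gene, the median was -0.33.

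Other genes of these pathways, taken from lists of known members, are given by role. Of 39 other replication genes, 29 were below 0 with a median of -0.082, which was 0.00054 with equal FPKM sums. The interval lay below 0 for 18 and above 0 for 5 of them, and 1 was at least 1.5-fold lower. All of these were among the 38 past the filter. Over all genes past the filter, the shares were 35.2%, 30.2% and 7.85%. The gene at least 1.5-fold lower was Gins2, a subunit of the GINS helicase cofactor. Gins2 had 2.09 FPKM in PBS and 0.95 in SJMHE1 (log2 ratio -1.14, interval -1.38 to -0.91), so it passed the filter only through the PBS library. So did Clspn (1.22 and 0.98 FPKM), which also had an interval below 0. The 3 most abundant differed less: the polymerase subunit Pold1 stood at 24.93 and 24.71 FPKM, the single-strand binding protein gene Rpa1 at 24.27 and 22.21, and the clamp loader subunit Rfc1 at 20.87 and 18.57.

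Of 53 other mitosis genes, 47 were below 0 with a median of -0.41. The interval lay below 0 for 39 and above 0 for 4, 17 were at least 1.5-fold lower and 1 was higher. Of the 40 genes past the filter, these counts were 33, 3, 14 and 1. Among them, Kif18b (1.36 and 0.83 FPKM), Espl1 (1.07 and 0.63) and Hmmr (1.28 and 0.98) passed only through the PBS library. Spc25 (0.67 and 1.04), the 1 that was higher, passed only through the SJMHE1 library. Over all genes past the filter, the shares were 35.2%, 30.2%, 7.85% and 5.72%. Racgap1, needed for cytokinesis, stood at 3.61 FPKM in PBS and 1.73 in SJMHE1 (log2 ratio -1.06, interval -1.19 to -0.93). Cdca5, which encodes sororin and holds sister chromatids together, stood at 3.38 and 1.63 (log2 ratio -1.05, interval -1.31 to -0.81). Pclaf, which encodes a PCNA-binding protein and so belongs as much to replication, stood at 3.79 and 1.85 (log2 ratio -1.03, interval -1.20 to -0.88). The 3 most abundant genes of this list differed less: the tubulin gene Tubb5 stood at 102.3 and 93.07 FPKM, the condensin gene Smc4 at 36.66 and 37.32, and the phosphatase gene Cdc25b at 23.94 and 21.64.

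Of 33 other regulators, such as D-type cyclins, inhibitors and pocket proteins, 15 were below 0 and 17 above, with a median of 0.0055 that turned to -0.00051 with counts scaled by their totals. Intervals lay below 0 for 8 and above 0 for 8, all among the 28 past the filter. Cdkn1a (1.26 and 0.72 FPKM), with an interval below 0, passed only through the PBS library. Over all genes past the filter, the shares were 35.2% and 30.2%. The antiproliferative genes Btg1 and Btg2 were the most abundant, with 232.5 and 212.8 FPKM for Btg1 and 129.7 and 152.4 FPKM for Btg2. Myc stood at 85.58 and 76.76 FPKM (log2 ratio -0.16, interval -0.20 to -0.13).

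Markers of other cells moved between the libraries too, and their part in the differences above was not tested. None of the markers measured was at an FPKM of 0 in either library. Of 9 germinal centre B cell markers found in the table, 8 were lower in SJMHE1, with a median of -0.79 and a summed FPKM of 45.15 in PBS and 31.72 in SJMHE1. Over all genes past the filter, 51.9% had a ratio below 0 and 3.57% were more than 2-fold lower. Gcsam and S1pr2 passed it only through the PBS library. Gcsam (2.99 and 0.90), S1pr2 (1.56 and 0.63) and Rgs13 (7.78 and 3.45) were more than 2-fold lower, whereas Bcl6, the master regulator of the germinal centre, stood at 11.06 and 13.49 FPKM. Mef2b stood at 7.26 and 4.67.

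For the marker counts that follow, 6453 of the 12433 genes past the filter were lower and 5929 higher. Of 10 plasma cell markers, 9 were lower, with a median of -0.29 and sums of 672.5 and 565.4 FPKM. All 12 T cell markers were lower, with a median of -2.02 and sums of 78.38 and 38.13. Of these, 11 were more than 2-fold lower. Lck, the largest part of both sums, stood at 27.92 and 25.19 FPKM (log2 ratio -0.15). All 8 NK cell markers were lower too, with a median of -1.37 and sums of 18.43 and 7.44. All 12 erythroid markers were higher, with a median of 0.70 and sums of 159.5 and 213.1. Macrophage markers (7 of 10 higher, median 0.28, sums 30.34 and 26.53) and neutrophil markers (6 of 10 lower, median -0.25, sums 462.1 and 534.7) were mixed. The 11 B cell markers had a median of 0.058, with sums of 7923 and 8306 FPKM. The members are used by any dividing cell, those of the T, NK and erythroid lineages included.

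**Figure D5:**
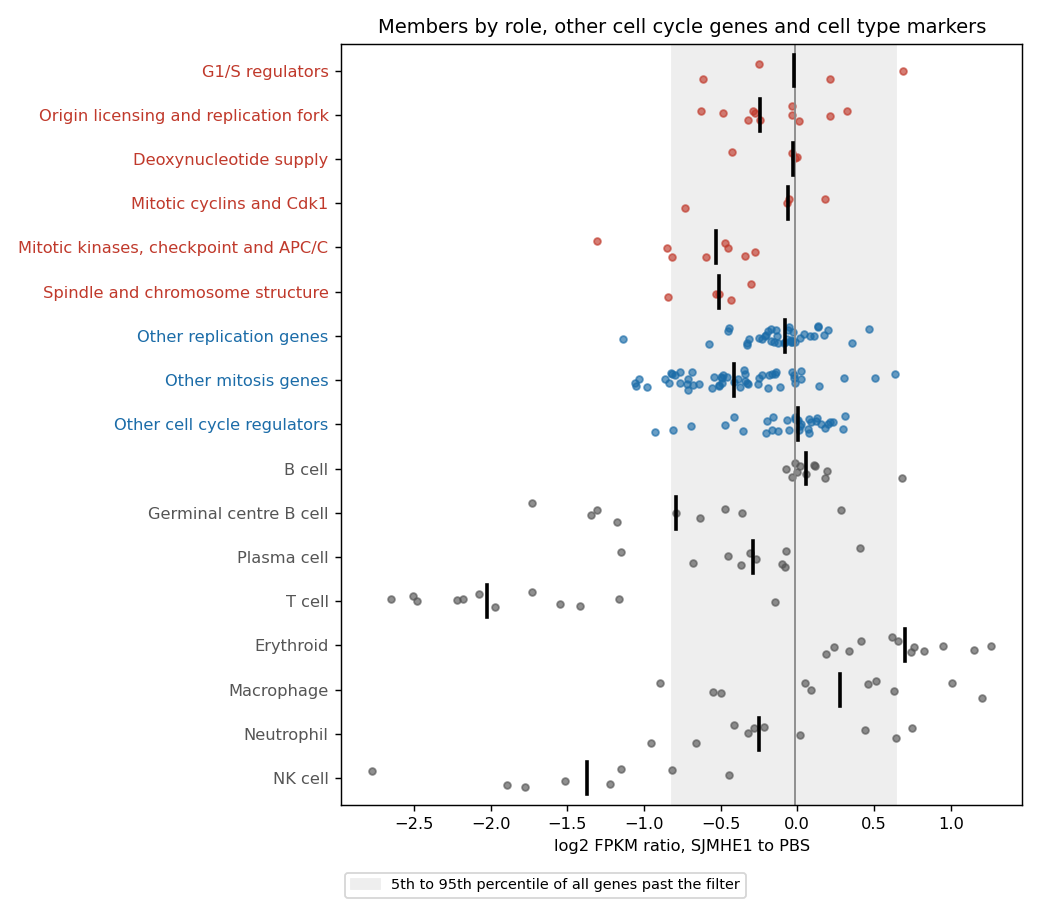
Log2 FPKM ratio, SJMHE1 to PBS, of single genes (points) in the role groups of the members (red), the lists of other cell cycle genes (blue) and the cell type markers (grey), with the median of each as a black bar. The grey band runs from the 5th to the 95th percentile of the genes past the filter, -0.82 to 0.64. The medians of the mitotic kinases (-0.53), the spindle genes (-0.51) and the other mitosis genes (-0.41) lie left of those of the replication groups. That of the mitotic cyclins and Cdk1 (-0.063) lies right of the licensing and fork genes (-0.25) and of the other replication genes (-0.082). The T cell markers lie farthest left (-2.02).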

How the data were processed

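RNA of sorted spleen B cells was sequenced from ribosomal RNA depleted libraries, with 1 pooled library in each of 3 groups. The authors deposited 1 table with whole-number read counts, not normalized, and FPKM values, scaled by gene length and library size and rounded. The submitters' processing notes name bcl2fastq 2.0, HISAT2, StringTie and mm10, and strand use in counting is not given in the sources used here. The 2 value columns whose name matches no sample were not used, so comparisons with Control were not made.

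Log2 FPKM ratios were taken without a pseudocount, and FPKM and count ratios of the members differed by at most 0.0099. Intervals and the filter are described with the results. An edgeR test needs replicates and could not be fitted, and edgeR 4.0.16 (R 4.3.3) gave TMM library sizes only. The interval calculation was tested on simulated data. Overlaps were taken from the gene positions in the deposited table, so genes without a row there were not covered. The 50-base windows came from GENCODE M21. Promoters came from RefSeq, 27 of whose 31 starts lay within 100 bases of the gene start in the table. Every member was named. From the other lists, genes past the threshold with at least 50 counts (at most 6 per list) and the 3 with the highest mean FPKM could be named, together with genes overlapping a member. The values of some of the genes so chosen are not reported here. The members and lists were chosen with earlier results of these data known. The division into replication and mitosis sets, the gene set in the members' range of counts and the members free of overlaps were chosen after the values were seen. Python 3.11.15 with numpy 2.4.6, pandas 2.3.3 and scipy 1.17.1 was used.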

Additional observations from a re-analysis of the deposited data

How the results depend on the processing

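The median ratio of the 36 members stayed below 0 in every alternative run, while medians of single role groups near 0 turned, as given with the results. No member past the filter was more than 2-fold apart in any setting, while without the filter 1 was lower. At 1.5-fold, 7 were lower and 1 higher, and without a filter 8 and 1. The median of -0.30 was -0.26 with a pseudocount of 1 FPKM, -0.21 with FPKM rescaled to equal sums, -0.27 with TMM library sizes and -0.33 over the members free of overlaps. The 302 genes higher and 444 lower became 100 and 146 with a pseudocount of 1 FPKM, 1367 and 2018 without the filter, 52 and 93 at an FPKM of at least 5, and 89 and 171 among protein-coding genes. At 1.5-fold they were 711 and 976. In the members' range of counts, 46 and 108 protein-coding genes were past 2-fold. Single members moved out of their counting interval in 11 of 36 cases with equal FPKM sums and in 7 of 36 with a pseudocount of 1 FPKM. No paired analysis was possible because the comparison holds 1 library per side, and for the same reason no library could be left out. The alternatives for the Control comparisons were not run.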
